A study of Glycine max with 4 samples.

Results

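The isoflavone synthesis genes described here are 7 soybean genes of 56044 in the deposited tables, chosen by identifier. They are the chalcone synthase genes CHS7 (Glyma.01G228700), CHS8 (Glyma.11G011500), CHS1 (Glyma.08G109400) and CHS6 (Glyma.09G075200), the chalcone isomerase gene CHI (Glyma.20G241500), and the isoflavone synthase genes IFS1 (Glyma.07G202300) and IFS2 (Glyma.13G173500). RNA was sequenced from the top 5 cm of the shoot of Glycine max cultivar Thorne, young trifoliate leaves included, from greenhouse plants 1 month old. Each of the 4 libraries came from a single plant. The plants tagged 1 and tagged 2 were transgenic and positive for the mmPing20F insertion at position 2785626 of chromosome 8 (of an unstated build), an activation tag built on the rice transposon mPing and meant to raise the expression of genes near it. Of the plants without that insertion, untagged 1 was a transgenic plant with the transposase expression construct and untagged 2 was an untransformed Thorne plant. They are called the transgenic untagged and the untransformed plant below. Both tagged plants carried the same insertion, so differences between insertions cannot be seen, and the labels do not say which promoter drove the transposase.

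Isoflavones are flavonoids made mainly by legumes. Chalcone synthase joins coumaroyl-CoA to malonyl-CoA units to give a chalcone, chalcone isomerase closes its ring to a flavanone, and isoflavone synthase, a cytochrome P450 enzyme, turns the flavanone into the precursor of the isoflavones genistein and daidzein. Chalcone synthase and chalcone isomerase also feed anthocyanins and other flavonoids, whereas isoflavone synthase is the entry to the isoflavone branch. In soybean, isoflavones accumulate in seeds, leaves and roots, act as signals to nodulating bacteria and give rise to defence compounds, the glyceollins.

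The libraries held between 27900266 and 49210060 counts, and the untransformed plant stood apart from the 3 transgenic plants. The biological coefficient of variation, the relative spread between plants of a group, was 0.457 over all 4 libraries with the tag as the grouping and 0.169 with the 3 transgenic plants taken as 1 group. The tests of the tagged plants are therefore given with and without that plant. Levels are normalized counts, the raw count divided by the size factor of its library. They are compared between plants and not between genes, since transcript lengths were not available. Nothing in the labels says that any of the plants were grown or prepared in separate batches. In these bulk samples, fewer cells of a type and less RNA per cell cannot be told apart. The identity of the tissue could not be checked against marker genes, since no table at hand pairs these identifiers with marker names.

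Both isoflavone synthase genes were far higher in the untransformed shoot tip than in any transgenic one. IFS1 had 827 normalized counts in tagged 1, 711 in tagged 2, 849 in the transgenic untagged plant and as many as 4573 in the untransformed plant. The 3 transgenic plants were close together, at 796 ± 74.5 (SD, n = 3), and the untransformed plant was 5.75 times their mean. IFS2 had 260, 53.6 and 60.5 normalized counts in the same 3 transgenic plants and 1971 in the untransformed plant. This gene was uneven among the transgenic plants, with tagged 1 well above the other two, and still the untransformed plant was 15.8 times their mean of 125 ± 117 (SD, n = 3). The raw counts behind IFS2 were 386, 45, 57 and 1678, so the low levels of tagged 2 and the transgenic untagged plant carry exact Poisson 95% intervals of 39.1 to 71.8 and 45.8 to 78.4 normalized counts. These intervals cover counting error only.

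**Figure D1:**
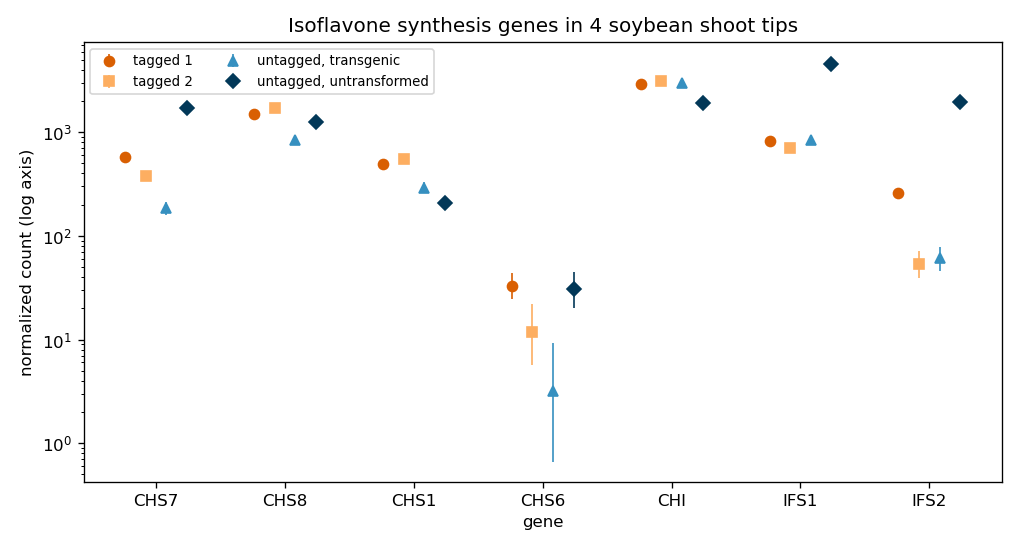
Normalized counts (y, log axis) of the 7 genes (x) in each of the 4 libraries. Points are single plants and bars are exact Poisson 95% intervals, which cover counting error only. The untransformed plant lies far above the others for IFS1, IFS2 and CHS7, and below them for CHS1 and CHI. Heights should be compared within a gene, since genes differ in length.

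The question of how the untransformed plant differed from the 3 transgenic ones was asked with edgeR's quasi-likelihood test over all 40884 genes that passed the low-count filter, among them 7 of the 7 isoflavone synthesis genes. At an adjusted p of 0.05, 3 of the 7 were higher in the untransformed plant, where 25.8% of all tested genes were, and 2 were lower, where 23.3% of all tested genes were. The untransformed plant was above all 3 transgenic plants for IFS1, IFS2 and CHS7, as for 43.3% of tested genes, and below all 3 for CHS1 and CHI, as for 42.4%. With so many genes different in this library, the number of these 7 that changed is not read as a result about the pathway. Their median absolute log2 difference was 1.13, against 0.77 over all tested genes. IFS1 rose by a log2 fold change of 2.50 ± 0.15 (SE, adjusted p = 7.82e-05). IFS2 rose by 3.88 ± 0.68 on the log2 scale (SE, edgeR adjusted p = 0.0041). With tagged 1 left out the log2 fold change of IFS2 was 5.09 ± 0.22 (SE), since the transgenic plant with the most IFS2 reads was then missing. The smaller SE rested on close levels in tagged 2 and the transgenic untagged plant, at 53.6 and 60.5 normalized counts. IFS1 stayed at 2.53. The comparison was chosen with earlier results of these data known. It has a single untransformed plant, which is assumed to vary like the transgenic ones. Transgenic status therefore cannot be told apart from any other property of that plant or its library.

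The chalcone synthase genes did not move as a group. CHS7, which with CHS8 has been linked to isoflavone synthesis in soybean seeds, had 573 normalized counts in tagged 1, 376 in tagged 2, 185 in the transgenic untagged plant and reached 1698 in the untransformed plant. The untransformed plant was thus above all 3 transgenic plants, at 4.49 times their mean, although these differed among themselves by 3.10 times from lowest to highest. CHS7 rose in the untransformed plant by a log2 fold change of 2.13 ± 0.46 (SE, edgeR adjusted p = 0.00951).

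CHS8 showed no such difference. It had 1511 and 1716 normalized counts in the tagged plants, 838 in the transgenic untagged plant and, without a transgene, 1259, which lay inside the range of the transgenic plants. Its log2 difference, untransformed against transgenic, was -0.13 ± 0.36 (SE, edgeR adjusted p = 0.789). The size of this SE leaves room for a difference in either direction.

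CHS1 went the other way from CHS7. It lies in the chromosome 8 cluster of chalcone synthase copies whose rearranged forms silence seed coat pigment in yellow soybeans. CHS1 had 493 and 546 normalized counts in the tagged plants, 292 in the transgenic untagged plant and only 206 in the untransformed plant, so the untransformed plant was the lowest of the 4. It fell in the untransformed plant by 1.13 ± 0.37 on the log2 scale (SE, edgeR adjusted p = 0.0414). This call is weak: the adjusted p was 0.0574 without tagged 1, 0.0657 without tagged 2 and 0.0773 in limma-voom.

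CHS6, also a chalcone synthase gene, was hardly detected. Its raw counts were 49, 10, 3 and 26 in tagged 1, tagged 2, the transgenic untagged plant and the untransformed plant. The corresponding levels were 33.0, 11.9, 3.18 and 30.5 normalized counts, and the Poisson interval of the lowest ran from 0.657 to 9.30. Its log2 difference, untransformed against transgenic, was 0.82 ± 0.99 (SE, edgeR adjusted p = 0.518), a fitted ratio of 1.76. Without tagged 1 the fitted ratio was 4.01 (edgeR adjusted p = 0.104).

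The chalcone isomerase gene, between the chalcone synthases and the isoflavone synthases in the pathway, was the steadiest of the 7 among the transgenic plants. CHI had 2933 and 3147 normalized counts in the tagged plants, 3004 in the transgenic untagged plant and fell to 1919 in the untransformed plant. The highest of the 3 transgenic plants was 1.07 times the lowest, and 90.9% of 32967 genes whose mean reached 50 normalized counts were spread at least as widely. The untransformed plant was below all of them. CHI fell there by 0.68 ± 0.16 on the log2 scale (SE, edgeR adjusted p = 0.0115), opposite in direction to IFS1, IFS2 and CHS7. A fall of this size was common: 51.7% of the same 32967 genes lay at least as far from the transgenic mean in the untransformed plant. That share was 31.8% for CHS1, 91.3% for CHS8, 9.63% for CHS7, 6.56% for IFS1 and 1.7% for IFS2.

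Summed by enzyme, the 2 isoflavone synthase genes had 920 ± 162 normalized counts in the transgenic plants (SD, n = 3) and 6543 in the untransformed plant, a ratio of 7.11. The 4 chalcone synthase genes had 2193 ± 758 and 3193, a ratio of 1.46. The lowest chalcone synthase sum was that of the transgenic untagged plant, at 1318, and the tagged plants were at 2610 and 2649. The isoflavone synthase sum of the untransformed plant was far outside the spread of the transgenic plants. Its chalcone synthase sum was also above that of every transgenic plant, but less than 2 of their SDs above their mean. That SD was widened by the low sum of the transgenic untagged plant.

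The 4 chalcone synthase genes also divided their reads differently. CHS8 had the largest share of their reads in each transgenic plant, at 57.9% in tagged 1, 64.8% in tagged 2 and 63.6% in the transgenic untagged plant. In the untransformed plant its share was 39.4% (exact Clopper-Pearson 95% interval 37.6 to 41.3), and CHS7 had the largest, at 53.2% (51.3 to 55.1). The share of CHS7 in the transgenic plants was 22.0%, 14.2% and 14.0% in the same order. That of CHS1 was 18.9%, 20.6% and 22.1% there and 6.44% (5.54 to 7.42) in the untransformed plant. These are shares of reads rather than of transcripts, and the intervals cover counting error only.

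Within the isoflavone synthases, IFS1 had most of the reads in every plant. The share of IFS2 was 7.02% (5.17 to 9.28) in tagged 2 and 6.65% (5.08 to 8.53) in the transgenic untagged plant, 2 values whose intervals overlap. It was 23.9% (21.9 to 26.1) in tagged 1 and 30.1% (28.9 to 31.3) in the untransformed plant. By this measure tagged 1 was nearer to the untransformed plant than to the other tagged plant.

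**Figure D2:**
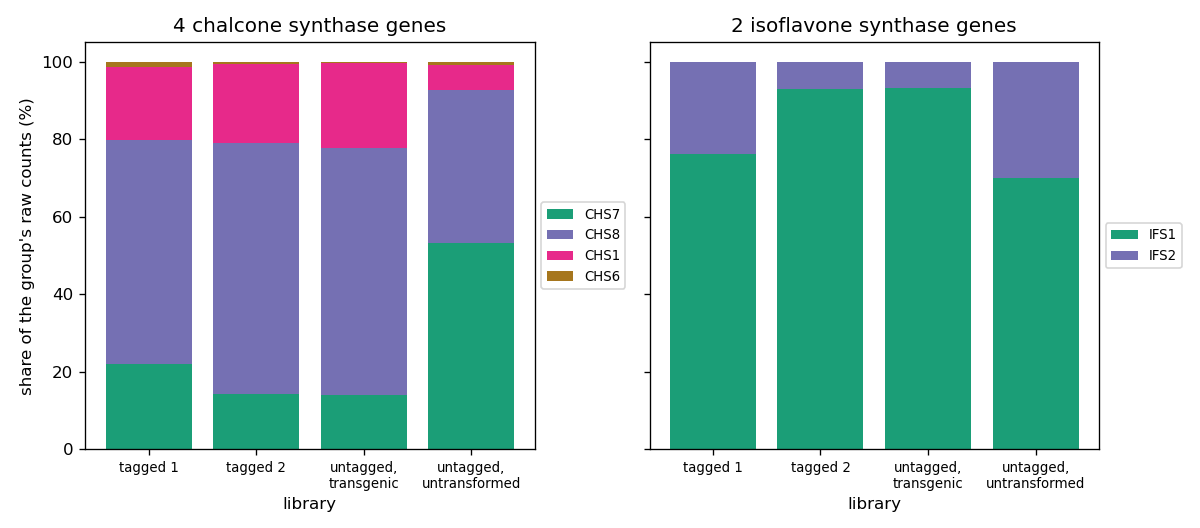
Share of raw counts (y, %) that each gene took within the 4 chalcone synthase genes (left) and the 2 isoflavone synthase genes (right), for each library (x). CHS8 leads the chalcone synthases in the 3 transgenic plants and CHS7 in the untransformed plant, and the IFS2 share is higher in tagged 1 and the untransformed plant than in the other two.

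The study's own comparison, tagged against untagged plants, asked whether the tag was accompanied by changes in expression. None of the 7 genes passed it: with edgeR's quasi-likelihood test 0 of 7 were called, and 0% of all 38824 tested genes were called in either direction. The edgeR fit put 444 genes at an unadjusted p under 0.05, and CHS1 was the only one of the 7 among them, with an adjusted p of 0.947. DESeq2 also called 0 of the 7, with 4 genes higher and 15 lower over all genes. For CHS8 and CHS1 both tagged plants lay above both untagged plants, an order seen in 14.7% of tested genes, and for IFS1 both lay below, as for 14.4% of tested genes. For IFS1 this order rested on a small gap, 827 in tagged 1 against 849 in the transgenic untagged plant. The untransformed plant sits in the untagged group, and its high levels gave the untagged group a mean of 2711 ± 2633 normalized counts for IFS1 and 1015 ± 1351 for IFS2 (SD, n = 2), against 769 ± 82.7 and 157 ± 146 in tagged plants. The log2 fold changes were -1.82 ± 0.86 for IFS1 and -2.68 ± 1.73 for IFS2 (SE, edgeR adjusted p = 0.947 for both). They were -0.99 ± 1.06 for CHS7, 0.62 ± 0.32 for CHS8 and 1.06 ± 0.31 for CHS1, with the same adjusted p.

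**Figure D3:**
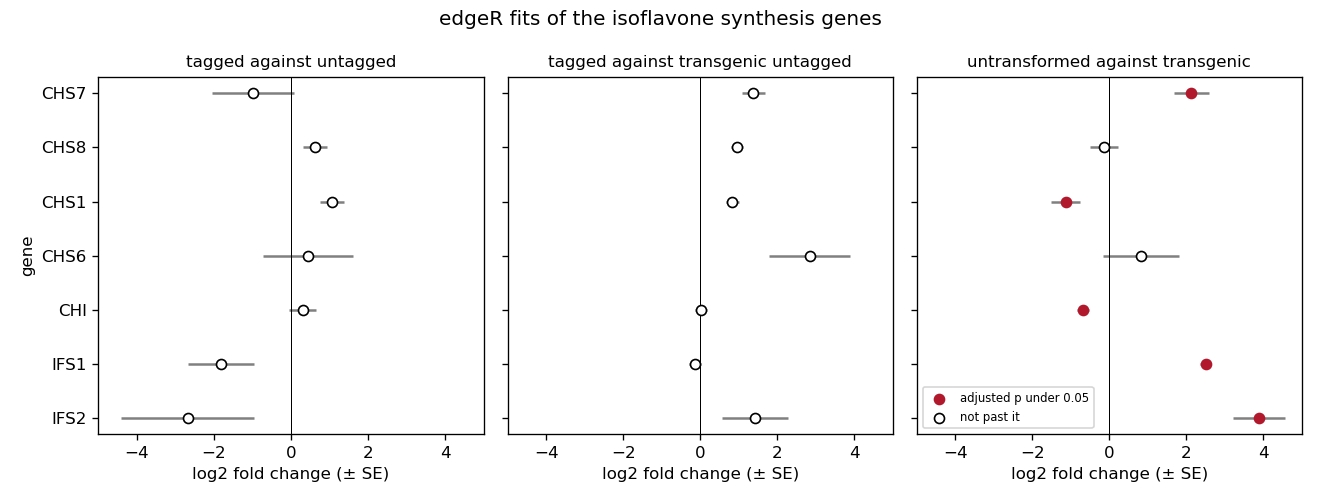
Log2 fold changes (x) with standard errors (bars) of the 7 genes (y) in edgeR's quasi-likelihood test, in 3 comparisons. Filled points passed an adjusted p of 0.05. None passed in the comparisons of tagged plants, and IFS1, IFS2, CHS7, CHS1 and CHI passed in that of the untransformed plant. The comparisons share plants.

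Without the untransformed plant, the tagged plants were compared with the transgenic untagged plant alone. For all 4 chalcone synthase genes both tagged plants lay above that plant, an order seen in 34.5% of tested genes. CHS7 was 2.57 times higher in the mean of the tagged plants, CHS8 was 1.92 times higher and CHS1 was 1.78 times higher. For CHS6 the 3 reads of the untagged plant allow no firm ratio. None passed over all 39528 tested genes in edgeR's test, which called 0.00506% of genes higher and the same share lower.

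In that test the log2 fold changes were 1.38 ± 0.29 for CHS7 (SE, adjusted p = 0.273), 0.95 ± 0.16 for CHS8 (adjusted p = 0.206) and 0.84 ± 0.17 for CHS1 (adjusted p = 0.27). Unadjusted, all 4 had an edgeR p under 0.05, from 0.000641 for CHS8 to 0.0329 for CHS6, where 5.9% of tested genes had such a p and were higher in tagged plants. The call depended on the method for a pair of these genes. DESeq2, which called 0.541% of genes higher, gave adjusted p = 0.0322 for CHS7 and 0.0131 for CHS8. The edgeR test without a low-count filter, which called 0.678% of genes higher, gave 0.0224 for CHS7 and 0.0181 for CHS8. With 1 untagged plant, a difference can belong to that plant as well as to the tag. The untagged plant is assumed here to vary like the tagged pair.

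The later enzymes did not share this order. CHI was 3040 ± 152 in tagged plants (SD, n = 2) and 3004 in the transgenic untagged plant, a log2 difference of 0.02 ± 0.16 (SE, edgeR adjusted p = 0.975). For IFS1 the log2 difference was -0.13 ± 0.16 (SE, edgeR adjusted p = 0.845). For IFS2 it was 1.42 ± 0.84 (adjusted p = 0.663), and the transgenic untagged plant lay between the tagged plants. The Poisson intervals of IFS2 in tagged 2 and the transgenic untagged plant overlap, so the order of these plants is uncertain for that gene. The direction of CHS7 and IFS2 thus turned with the control: both were lower in tagged plants when the untransformed plant was among the controls and higher when it was not. The main test called neither gene in either case, and IFS2 was called by no method against the transgenic untagged plant.

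The tagged plants themselves differed in IFS2. It was 4.85 times higher in tagged 1 than in tagged 2, from 386 and 45 raw counts. Of the 32967 genes whose mean reached 50 normalized counts, 2.02% were over 2-fold apart between these plants, and 74 genes (0.224%) were as far apart as IFS2. CHS7 was 1.53 times higher in tagged 1, a gap reached by 6.83% of genes. CHS8, CHS1 and CHI were slightly lower in tagged 1, at 0.881, 0.903 and 0.932 times the level of tagged 2, and IFS1 was 1.16 times higher. CHS6 was 2.77 times higher in tagged 1, with 10 reads in tagged 2. With 1 library on each side the difference between the tagged plants has no replicate check.

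**Figure D4:**
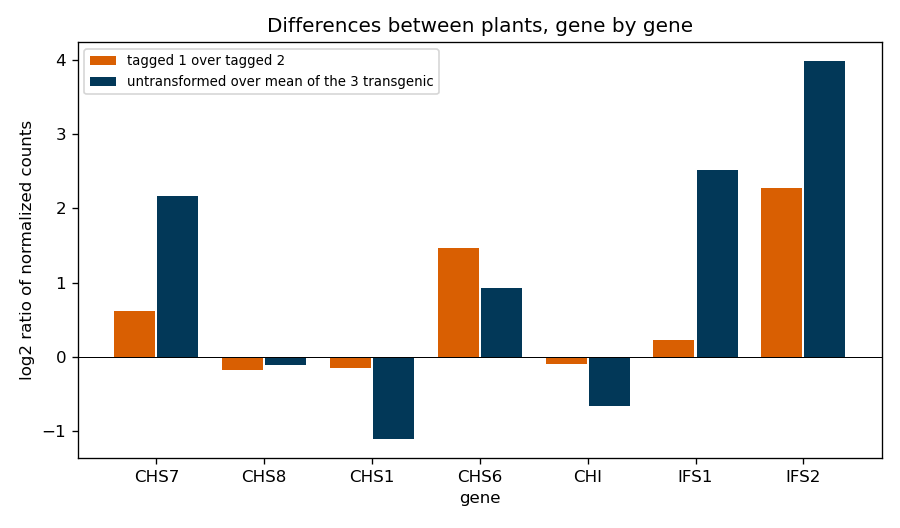
Log2 ratio of normalized counts (y) for each gene (x), tagged 1 over tagged 2 (orange) and the untransformed plant over the mean of the 3 transgenic plants (dark blue). IFS2 has the largest ratio in both, 4.85 and 15.8 times, and CHI is lower in the untransformed plant, at 0.634 times the transgenic mean.

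Genes with a pattern like that of the isoflavone genes were sought by the Euclidean distance of centred log2(normalized count + 1) over the 4 libraries, a description with no test. The gene nearest to IFS2 among 32966 others was Glyma.08G314700, at a distance of 0.40, with 103, 19.1, 29.7 and 680 normalized counts in tagged 1, tagged 2, the transgenic untagged and the untransformed plant. The next was Glyma.13G245600, at 0.48. CHS7 came at rank 980 and IFS1 at rank 1373, at distances of 2.15 and 2.33. The distance was not scaled by the size of a gene's changes, so distances from IFS2 and from CHS8 should not be compared. CHS8 was nearest to Glyma.13G138100, at 0.08, and Glyma.07G059400, at 0.09, with CHS1 at rank 8800. The tables at hand give no name to these 4 identifiers.

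Genes numbered close to a member may be copies of it, since RefSeq places other chalcone synthase and chalcone isomerase genes next to CHS1 and CHI. With that limit, the genes numbered within 5 places of a member on either side, 70 genes, served as a view of the surroundings. Of these, 55 were tested in the untransformed plant against the transgenic plants, and 17 were higher and 16 lower, 60% in all against 49.1% of all tested genes. In the comparisons of tagged plants 0 of 53 tested neighbours were called, with an unadjusted p under 0.05 for 0 of them against all untagged plants and for 7 against the transgenic untagged plant, where 3746 of all 39528 tested genes had such a p.

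The names of the 7 genes are those of the rule that chose them. The RefSeq table of assembly Glycine_max_v4.0 has no identifier of this form. For each of the 7 it holds a gene of the corresponding name on the chromosome that the identifier names, with CHI1A taken for CHI. RefSeq gives IFS2 as a synonym of IFS1 and IFS1 as a synonym of IFS2, so the names can be exchanged between sources, and here IFS1 is the gene on chromosome 7 and IFS2 the gene on chromosome 13. RefSeq lists 17 numbered chalcone synthase symbols, 9 of them on chromosome 8, where CHS1 has CHS3 just before it and CHS9 just after it. CHI1A is followed by CHI1B1 and CHI2-A. Reads of such close copies could be divided or lost in the counting, so the level of CHS1 in particular is uncertain, and the split of reads between CHS7 and CHS8 and between IFS1 and IFS2 could be affected in the same way.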

How the data were processed

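The authors deposited raw read counts per gene and a table of signal values, which are those counts divided by 1 size factor per library. Recomputed median-of-ratios factors gave the deposited signal values to within 4.29e-05. That table also holds a single fold ratio by the authors, for a gene outside these 7, which was not used. CASAVA 1.8, HISAT2 2.1.0, HTSeq 0.6.1 and DESeq2 are named, per the submitters' processing notes. For the build, annotation and strand setting: not given in the sources used here. The transgenic untagged plant has a name with 1 more digit in the design text than in its label, and both were taken to mean the same plant.

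The main test was edgeR 4.0.16 (R 4.3.3) on raw counts: quasi-likelihood fit, TMM scaling, default low-count filter, Benjamini-Hochberg adjustment over all genes tested at 0.05, and SE as the absolute change over the square root of F. It was tested on simulated data. Alternatives tried were limma-voom (limma 3.58.1), DESeq2 1.42.0, upper-quartile and RLE scaling, no filter, CPM of at least 1 in 2 libraries, the replicate block and leaving out libraries. Size factors were computed over all 4 libraries. The members, the lists and the comparison of the untransformed plant with the transgenic plants were chosen with earlier results of these data known. The planned lists of other pathway genes and of tissue markers needed names for the identifiers and were not used. In their place the neighbours by identifier number were counted. Named genes were the 7 members and the 2 genes nearest in pattern to IFS2 and to CHS8. Deviations of same-numbered libraries correlated at -0.052 over 38824 genes. Since untagged 1 and untagged 2 also differ in transgenic status, this value cannot decide whether the numbers are pairs. The main test did not treat them as pairs, and the replicate block was run as an alternative. The p-values set each difference against the spread between single plants, estimated with information shared across genes. Where a side was a single plant, that spread came from the other side only.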

Additional observations from a re-analysis of the deposited data

How the results depend on the processing

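Tagged against untagged plants, counts of 0 genes and 0 members held under limma-voom, both other scalings, both other filters and the replicate block, in which the log2 fold change of CHS7 was -0.28 and that of IFS2 -1.54. DESeq2 called 4 genes higher and 15 lower and 0 members. Leaving out 1 library gave 0 to 9669 genes higher, 0 to 10419 lower, 0 to 2 members higher (CHS1 and CHI) and 0 to 3 lower (CHS7, IFS1 and IFS2), the upper ends without the transgenic untagged plant. With 1 library left out at a time, CHS7 ran from -1.80 to 1.38 on the log2 scale and IFS2 from -4.22 to 1.42, both above 0 without the untransformed plant. CHS6 ran from -0.47 without tagged 1 to 2.84, and was -0.35 without the transgenic untagged plant. Tagged against the transgenic untagged plant, the edgeR test gave 2 genes higher and 2 lower. DESeq2 gave 214 and 22, no filter 318 and 43, upper-quartile scaling 35 and 7, RLE scaling 3 and 5, and limma-voom 0 and 0, with 1921 and 1415 at an unadjusted p under 0.05. Members higher were 2 (CHS7 and CHS8) under DESeq2 and no filter, and 0 under the others. No library could be left out there with a test. Untransformed against transgenic plants, members higher stayed at 3 under every alternative run. Members lower were 1 under limma-voom and 1 to 2 on leaving out a library, CHS1 being lost. CHS8 ran from -0.38 to 0.069 on leaving out a library, above 0 without tagged 2. Upper-quartile scaling moved the median of all genes from -0.03 to -0.21 on the log2 scale and the split of genes from 10555 higher and 9510 lower to 8675 and 11739; the directions of the 7 genes did not turn. CHS6 was not tested at a CPM of at least 1 in 2 libraries. By CPM of the library total, the untransformed plant was at 4.74 times the transgenic mean for IFS1 and at 0.522 times for CHI. Causes of these changes were not tested. The few reads of CHS6 limit what can be said of it.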
